A study of Mus musculus with 4 samples.

Results

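The MYC and MAX network is a set of transcription factor genes whose proteins pair with one another on DNA. Its 10 genes here were the MYC family (Myc, Mycn and Mycl), Max, the repressor genes Mxd1, Mxd3, Mxd4, Mxi1 and Mnt, and the MAX-like gene Mlx. A gene was taken from the array where a feature was annotated to it alone. All 10 had exactly 1 such feature, among 19938 genes measured in this way. The rule names genes by family and uses no measured value, though it was written with earlier results of these data known.

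RNA of 4 differentiating cultures of mouse erythroid cells was hybridised to the Affymetrix GeneChip Mouse Gene 1.0 ST, 1 array per culture. The 2 MEL cultures, called A and B, came from an erythroleukemia line kept in DMEM with fetal serum, glutamine and puromycin, and 17b-estradiol had been added for 48 hours. The 2 ES-EP cultures, also A and B, came from a line of erythroid progenitors made from embryonic stem cells and expanded with Epogen, IGF-1, dexamethasone and SCF. They had been moved for 24 hours to StemPro34 medium with more Epogen, insulin and mifepristone, which blocks the glucocorticoid receptor. All 4 cultures were in the differentiating state, so the comparison sets one differentiating system against another and shows no change over time. Line, medium, inducer and hours differ together and cannot be told apart, and the sources used here do not say what estradiol and puromycin act on in the MEL line.

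MAX sits at the centre of the network. MYC proteins need MAX to bind the DNA letters CACGTG (the E-box) and then activate genes of ribosome production, metabolism and the cell cycle. MXD1, MXD3, MXD4, MXI1 and MNT bind the same sites with MAX but bring in the SIN3 corepressor and histone deacetylases, so they oppose MYC. MLX is a relative of MAX that pairs with the glucose-responsive factors MLXIP and MLXIPL, and also with some MXD proteins and MNT. In red cell precursors Myc normally declines as cells mature, and forced Myc is known to block the maturation of MEL cells.

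Promoter sequences from RefSeq (build GRCm38.p6) were given for 9 of the 10 genes, with 11 start sites because Mxi1 has several. The stretches shown are the 250 bases before the start site, 5′ to 3′, of the 3 genes called different between the cultures whose signal lay above the array median, with capitals for the letters CACGTG, which read the same on both strands.
Mxd4, chr5:34187711-34187960, minus strand: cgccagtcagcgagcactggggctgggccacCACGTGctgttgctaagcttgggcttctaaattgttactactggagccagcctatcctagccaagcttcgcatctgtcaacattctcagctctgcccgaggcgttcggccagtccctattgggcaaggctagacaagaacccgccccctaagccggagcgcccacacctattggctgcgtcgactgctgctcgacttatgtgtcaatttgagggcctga
Mxd1, chr6:86669160-86669409, minus strand: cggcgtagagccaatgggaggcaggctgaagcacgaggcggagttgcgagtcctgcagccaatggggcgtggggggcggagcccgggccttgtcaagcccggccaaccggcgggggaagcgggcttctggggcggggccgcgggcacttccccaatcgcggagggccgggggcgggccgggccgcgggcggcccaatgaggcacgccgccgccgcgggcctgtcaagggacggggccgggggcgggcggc
Mlx, chr11:101087040-101087289, plus strand: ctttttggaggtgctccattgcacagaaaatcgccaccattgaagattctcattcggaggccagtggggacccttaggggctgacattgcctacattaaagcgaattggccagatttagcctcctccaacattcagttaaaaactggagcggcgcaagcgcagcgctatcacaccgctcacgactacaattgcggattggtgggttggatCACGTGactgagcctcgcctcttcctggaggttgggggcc
The Mxd4 stretch holds CACGTG once, starting 219 bases before the start site, and the Mlx stretch holds it once, 40 bases before. The Mxd1 stretch does not have these letters. Of the other 6 genes only Mnt has them, 123 bases before its start, so 3 of 9 genes carried a match. Counted by stretch, these are 3 of the 11, against 6.02% of 32851 mouse promoter stretches of this length. The letters GATAA or their reverse TTATC, read by GATA factors and not overlapping CACGTG, occurred in 22.6% of those stretches and in 0 of the 11 here. These matches describe letters in a window and are not evidence of binding.

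Of the antagonists of Myc, Mxd4 was 2.90-fold higher in MEL against ES-EP cells and Mxd1 was 1.84-fold lower. Myc itself gave a bright signal in both and did not pass the test, with a ratio of 1.02. Mlx and Mycl were slightly lower, and Max, Mxi1, Mxd3, Mnt and Mycn did not pass the test. All values are log2 values made by RMA, a normalization that summarises the probes of a feature. A gene was called higher or lower at an adjusted p under 0.05 (limma, Benjamini-Hochberg over 28944 features), whatever the size of its difference. By this rule 1 of the 10 network genes was higher in MEL and 3 were lower, where 21.8% of all genes were higher and 36.9% lower, 58.6% in all. After quantile normalization 3 network genes were higher and 2 lower (26.7% and 28.6% of all genes), after cyclic loess 3 and 1 (29.0% and 24.5%), and after centring 1 and 1 (23.0% and 28.8%). The call is therefore common on these arrays, and as deposited the shares of network genes are not above those of all genes. With at least 2-fold required, 1 network gene was higher and 0 were lower, against 7.38% and 4.93% of all genes. The median difference, MEL minus ES-EP, was -0.01 for the network and -0.14 for all genes. The lower quartile of the tested features was 4.46 and 4.38 on the MEL arrays and 4.66 and 4.65 on the ES-EP arrays. The upper quartile was 8.23 and 8.33 against 8.25 and 8.26, so the arrays differed more at the dim end. The median and shares of all genes include dim features and are not matched in level to bright genes or lists.

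**Figure D1:**
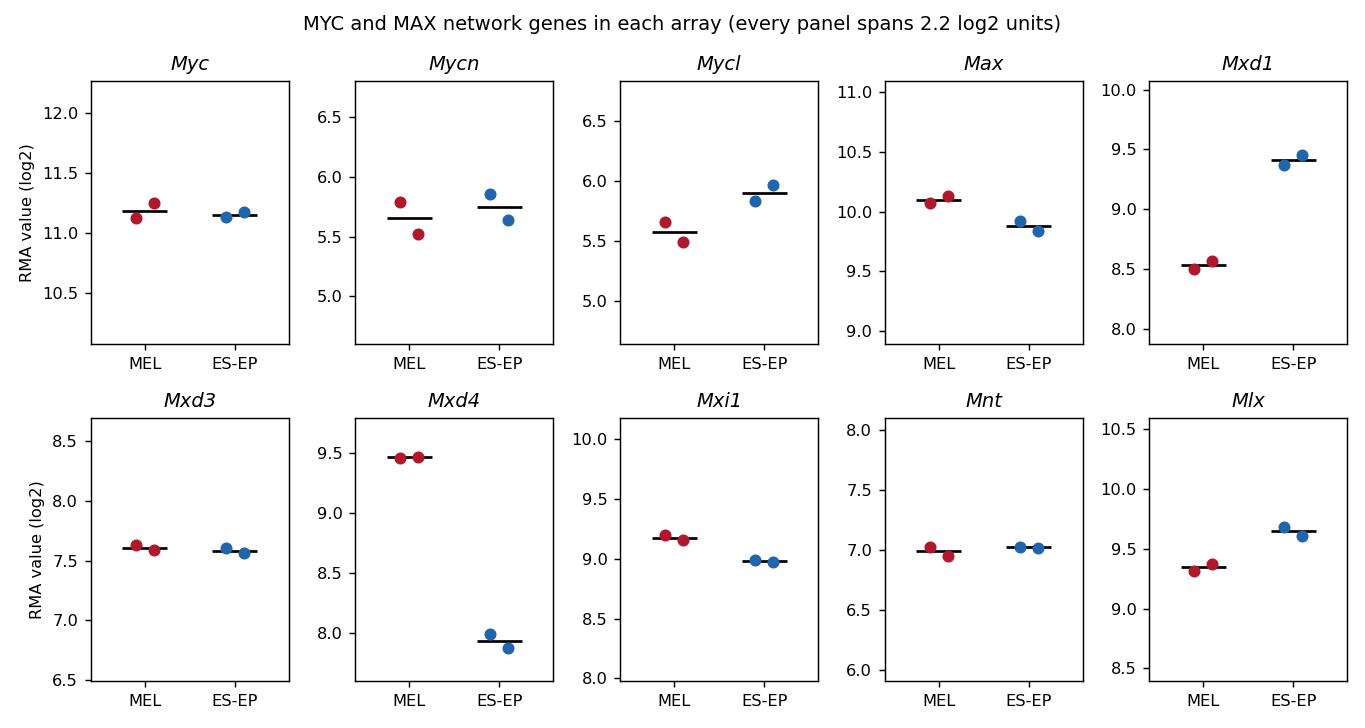
RMA log2 values of the 10 network genes, 1 panel per gene, with the MEL arrays on the left and the ES-EP arrays on the right. Dots are single arrays, bars are group means, and every panel spans the same range, so the wide gaps of Mxd4 and Mxd1 stand out beside the dots of Myc. Levels of different genes rest on different probes and are not to be compared across panels.

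Among the MYC family, Myc, the broadly used member, had values of 11.12 and 11.25 in the MEL arrays and 11.13 and 11.18 in the ES-EP arrays. The MEL values enclose the ES-EP values. The difference was 0.03 ± 0.09 (log2, SE, n = 2 per group, limma adjusted p = 0.764), and its 95% interval as a ratio of MEL over ES-EP ran from 0.887 to 1.18. Mycn, the member best known in the embryo and in neural cells, was at 5.79 and 5.52 in MEL and 5.86 and 5.64 in ES-EP cells. The groups overlapped, and the difference of -0.09 ± 0.12 did not pass (limma adjusted p = 0.532). Mycl, first described in lung cancer, was at 5.66 and 5.49 in MEL and 5.83 and 5.97 in ES-EP cells, with both MEL values below both ES-EP values. It was 1.25-fold lower in MEL (-0.33 ± 0.10, SE, limma adjusted p = 0.0252). That call was lost without MEL culture B (adjusted p = 0.0938) or ES-EP culture B (0.165). Wherever a culture was left out, 1 array remained in its group and was assumed to vary like the other group, whose pair gave the spread. The call was also lost under each of 3 other scalings of the arrays (0.0647 to 0.167). Mycn lay below the array median on all 4 arrays and Mycl on 3 of 4. The table has no detection calls, so these 2 genes were not told from background.

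Max and its relative Mlx differed by small amounts. Max had 10.07 and 10.13 in MEL and 9.93 and 9.84 in ES-EP cells. Both MEL values were the higher ones, but the difference of 0.22 ± 0.08 (SE, n = 2 per group) missed the threshold (limma adjusted p = 0.0609). It passed after quantile normalization (0.36, adjusted p = 0.00740) and cyclic loess (0.33, 0.0115). It also passed, with the difference at 0.22, under an intensity trend (0.0113) and with dim features left out (0.0358), and did not pass after centring (0.28). Mlx had 9.31 and 9.38 in MEL and 9.68 and 9.61 in ES-EP cells, with no overlap. It was 1.23-fold lower in MEL (-0.30 ± 0.08, limma adjusted p = 0.0182). Relative to the median of all genes, which is not matched in level to Mlx, the difference was -0.16. The call was lost after cyclic loess (limma adjusted p = 0.0655) and after centring (0.121). It was also lost without ES-EP culture A (difference -0.27) or B (-0.34).

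The repressors held the only large differences. Mxd4, an MXD gene often expressed in resting or maturing cells, was at 9.46 and 9.47 in MEL and 7.99 and 7.87 in ES-EP cells. The 2 groups lay far apart in comparison with the gap between duplicates. The difference was 1.54 ± 0.09 (log2, SE, n = 2 per group), a ratio of 2.90 with a 95% interval of 2.52 to 3.34 (limma adjusted p = 8.41e-06). Of all genes, 3.82% were more strongly raised in MEL. Mxd1, which is induced in many lineages as cells leave the cycle, was at 8.50 and 8.56 in MEL and 9.37 and 9.45 in ES-EP cells. Again the groups did not overlap, in the opposite direction. Its difference was -0.88 ± 0.08 (SE, n = 2 per group), a ratio of 0.545 with a 95% interval of 0.475 to 0.625 (limma adjusted p = 0.000122), and 6.36% of all genes were more strongly lowered. Under 12 alternatives that keep the threshold on the adjusted p alone, Mxd4 lay between 1.48 and 1.62 and Mxd1 between -0.92 and -0.78, and both passed in each. With at least 2-fold required Mxd4 passed and Mxd1 did not.

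Mxi1, the repressor gene also called Mxd2, was at 9.20 and 9.15 in MEL and 8.99 and 8.97 in ES-EP cells. The groups did not overlap, but the difference of 0.19 ± 0.08 missed the threshold (limma adjusted p = 0.0756). It passed after quantile normalization (adjusted p = 0.0447), cyclic loess (0.0217), an intensity trend (0.0392) and with dim features left out (0.0436). Mxd3, the member tied to dividing cells in S phase, was at 7.63 and 7.58 in MEL and 7.61 and 7.56 in ES-EP cells. Mnt, the repressor that is present in most cells, was at 7.03 and 6.95 in MEL and 7.03 and 7.02 in ES-EP cells. Both overlapped between groups, with differences of 0.02 ± 0.08 and -0.04 ± 0.08 (SE) whose 95% intervals ran from -0.17 to 0.21 and from -0.23 to 0.16. In all, 3 network genes had both MEL values above both ES-EP values, 3 had both below, and 4 overlapped, where 28.7% of all genes lay above and 51.5% below.

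**Figure D2:**
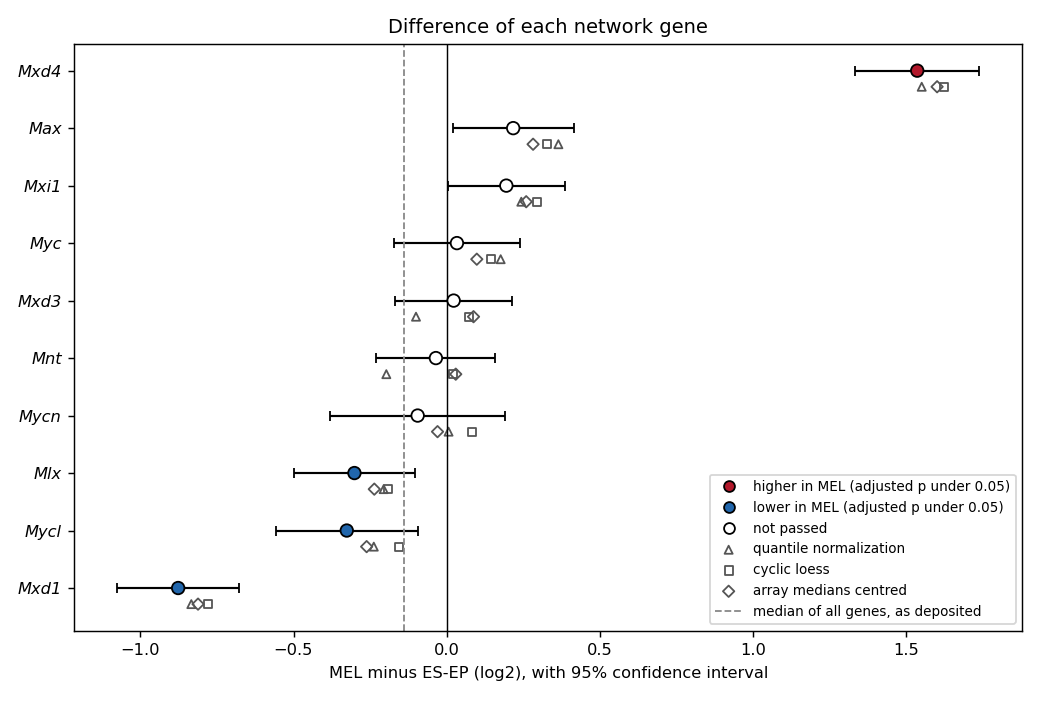
Difference of each network gene, MEL minus ES-EP on the log2 scale, ordered from highest at the top to lowest at the bottom. Circles are the values as deposited with 95% confidence intervals from limma, filled where the adjusted p was under 0.05, and the small open marks below are the same difference under 3 other scalings. Mxd4 at 1.54 and Mxd1 at -0.88 stand clear of the other 8 genes, which lie between -0.33 and 0.22.

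A description of likeness was made over the 4 arrays, on values centred on each gene's own mean. The genes nearest to Myc were Vipas39, Pdxp and Ecpas, at root mean square distances of 0.00501, 0.00504 and 0.00656 on the log2 scale. Those nearest to Mxd4 were Elmod3, Glis2 and Tgfbr3, at 0.00530, 0.0113 and 0.0126. With 2 groups of 2 arrays such nearness means a like difference between the groups and little more.

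Genes of the ribosome that MYC is known to activate were mostly lower in MEL. Of 42 listed genes of ribosome production and translation 40 were measured, of which 2 were higher, 27 were lower and 11 did not pass. That is 5% higher and 67.5% lower, beside 21.8% and 36.9% of all genes. The median difference was -0.53, against -0.14 over all genes, and the lower genes numbered 25, 25 and 23 under quantile normalization, cyclic loess and centring. Ncl, the gene of nucleolin, was at 11.54 and 11.67 in MEL and 12.23 and 12.15 in ES-EP cells, and lower by -0.59 ± 0.09 (log2, SE, limma adjusted p = 0.00127). Utp20, which takes part in the processing of the small subunit's RNA, was 3.06-fold lower, with means of 7.82 ± 0.25 for MEL and 9.43 ± 0.07 for ES-EP (SD, n = 2 each). Rrp12, another processing factor, was 2.41-fold lower. Apart from these 2, no gene of this list was 2-fold lower, so most of these differences were small. With at least 2-fold required, 0 of the 40 were higher and 2 lower, against 7.38% and 4.93% of all genes. At that criterion the share of lower genes was near that of all genes. The higher genes were Mphosph10 (0.33 ± 0.09) and Las1l (0.23 ± 0.08), and both calls were lost without ES-EP culture A (adjusted p = 0.0630 and 0.262) or B (0.0855 and 0.142). Las1l was also lost without MEL culture B (0.110).

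The MYC-activated genes of metabolism and the cell cycle showed the same lean, with a few strong exceptions. Of 41 listed genes 37 were measured, 5 were higher, 26 were lower and 6 did not pass, with a median of -0.49. That is 13.5% higher and 70.3% lower, by the same background. With at least 2-fold required, 3 of the 37 were higher and 4 lower, against 7.38% and 4.93% of all genes. Most of the differences called lower were therefore small. Odc1, the first enzyme of polyamine synthesis and a classic MYC target, averaged 11.07 ± 0.09 for MEL and 12.15 ± 0.02 for ES-EP (SD, n = 2 each), and was 2.11-fold lower (-1.08 ± 0.09, SE, limma adjusted p = 5.06e-05). Its second, dimmer feature was 1.72-fold lower, short of 2-fold. Cad, which starts pyrimidine synthesis, was 1.31-fold lower, a call lost without ES-EP culture B (adjusted p = 0.0694). The cell cycle phosphatase gene Cdc25a was 2.39-fold lower and the cyclin gene Ccnd2 1.30-fold lower, while its kinase partner Cdk4 averaged 12.15 ± 0.02 for MEL and 12.11 ± 0.01 for ES-EP (SD, n = 2 each) and did not pass. Prps2, a phosphoribosyl pyrophosphate synthetase, was 44.4-fold lower, with 3.98 and 3.86 in MEL and 9.33 and 9.46 in ES-EP cells. RMA leaves a floor under dim features, so a fold against a value near it understates the difference.

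The 5 higher genes of this list were Hk2, Tert, Pkm, Ldha and Hspd1. Hk2, a hexokinase, was at 9.65 and 9.70 in MEL and 7.00 and 6.81 in ES-EP cells, 6.84-fold higher (2.77 ± 0.10, SE, limma adjusted p = 8.10e-07). Ldha, lactate dehydrogenase, was 1.72-fold higher. Pkm, the pyruvate kinase gene, named after its value was seen, was 2.02-fold higher. A second, dimmer feature of Pkm was 1.92-fold higher, short of 2-fold. Tert, the catalytic subunit of telomerase, was at 6.48 and 6.46 in MEL and 4.59 and 4.80 in ES-EP cells, 3.43-fold higher. The chaperone gene Hspd1, also named after its value was seen, was the remaining higher gene, with a difference of 0.26, and its second feature differed by 0.06 and did not pass (limma adjusted p = 0.595). The higher genes numbered 4 without MEL culture B, ES-EP culture A or ES-EP culture B, and with the mean of a gene's features. Slc2a1, the main glucose transporter of red cell precursors, likewise named after its value was seen, differed by -0.23 and did not pass (limma adjusted p = 0.0557).

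Genes that MYC is known to repress differed in both directions. Of 20 listed, 19 were measured, 7 were higher, 9 were lower and 3 did not pass. By at least 2-fold, 4 were higher and 3 lower, against 7.38% and 4.93% of all genes. The shares of 36.8% higher and 47.4% lower stand against 21.8% and 36.9% of all genes. Their median of -0.15 was close to that of all genes and turned to 0.05 after cyclic loess. Without ES-EP culture B the lower genes numbered 5. Ndrg2 was at 10.31 and 10.30 in MEL and 6.33 and 6.01 in ES-EP cells, 17.6-fold higher. Its relative Ndrg1, named after its value was seen, was 5.51-fold higher, and the stress gene Gadd45b 7.62-fold higher. In the other direction Gadd45a, of the same family as Gadd45b, was at 9.28 and 9.19 in MEL and 11.54 and 11.52 in ES-EP cells, 4.90-fold lower. Cdkn2b, an inhibitor of CDK4 and CDK6 and a textbook gene of MYC repression, was 4.63-fold lower, with 6.95 and 6.92 in MEL and 9.23 and 9.06 in ES-EP cells. Cdkn1b, a further inhibitor, was 1.17-fold lower on its brighter feature (limma adjusted p = 0.0473), a call lost without any 1 of the 4 cultures (0.0667 to 0.214) and under the other 3 scalings (0.132 to 0.321). Its dimmer feature was 2.02-fold lower.

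**Figure D3:**
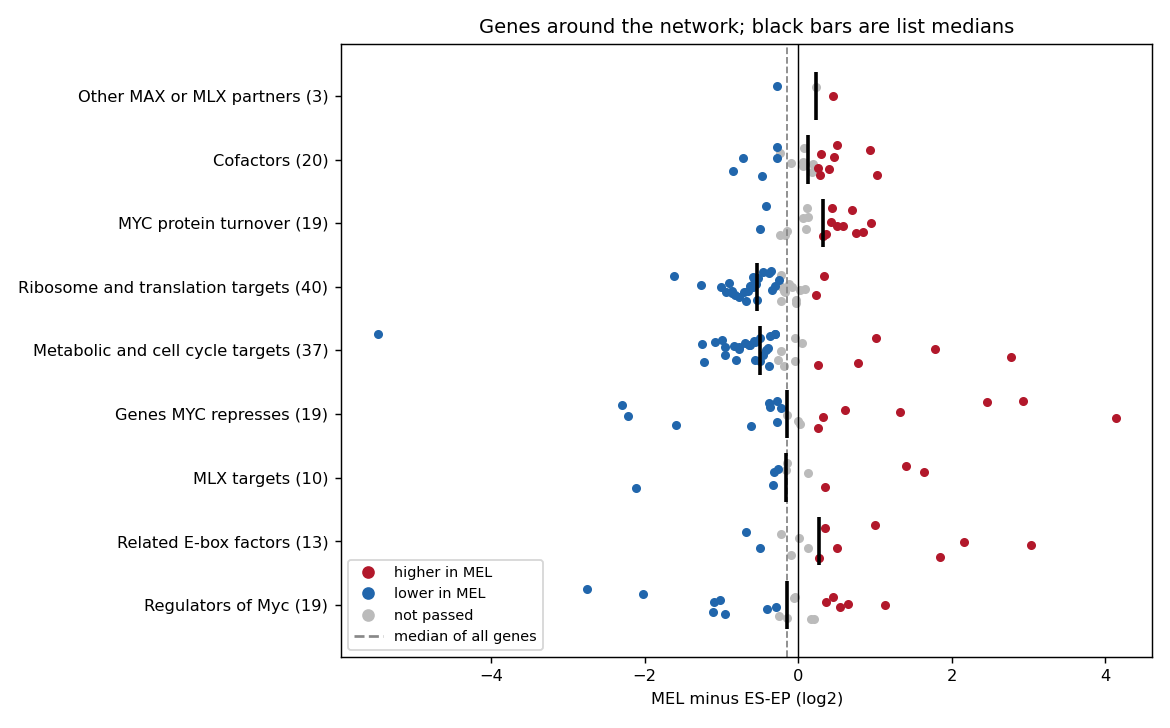
Difference, MEL minus ES-EP on the log2 scale, of every measured gene on 9 lists around the network, with the number of genes in brackets. Red dots are genes called higher in MEL, blue dots genes called lower, grey dots genes that did not pass, black bars list medians and the dashed line the median of all genes. The ribosome and metabolic target lists have medians of -0.53 and -0.49, left of the median of all genes at -0.14, and the genes MYC represses spread from -2.29 to 4.13.

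The MLX side of the network differed gene by gene. Of its other partners, Mlxip was 1.37-fold higher, with 7.47 and 7.53 in MEL and 7.10 and 7.00 in ES-EP cells (0.45 ± 0.09, SE, limma adjusted p = 0.00348). Mlxipl gave a dim signal, 5.68 ± 0.09 for MEL and 5.96 ± 0.01 for ES-EP (SD, n = 2 each). Its call as lower (adjusted p = 0.0291) was lost without MEL culture B (0.0810) or ES-EP culture A (0.123) or B (0.141), after cyclic loess (0.195) or centring (0.165), and with the intensity trend (0.0608). Mga, a MAX partner with a further DNA binding domain, differed by 0.24 and did not pass (adjusted p = 0.0902), though it did without MEL culture A (0.0211), after cyclic loess (0.0292) or centring (0.0415), and with the intensity trend (0.0493). Of 10 genes known or proposed to respond to MLX complexes 3 were higher and 4 lower, 30% and 40% beside 21.8% and 36.9% of all genes. These shares are near those of all genes. By at least 2-fold 2 of the 10 were higher and 1 was lower, against 7.38% and 4.93% of all genes. The lower ones numbered 2, 1 and 1 under quantile normalization, cyclic loess and centring, where 28.6%, 24.5% and 28.8% of all genes were lower. Without ES-EP culture A or B 1 was lower, and without MEL culture A 2 were. Txnip, the best known gene of the MLXIP and MLX pair and a brake on glucose uptake, was at 11.71 and 11.76 in MEL and 10.06 and 10.12 in ES-EP cells, 3.12-fold higher. G6pc3, a glucose-6-phosphatase, was 2.64-fold higher. The arrestin gene Arrdc3 was 4.32-fold lower, and Acaca, a gene of fatty acid synthesis, 1.26-fold lower, a call lost without MEL culture A (adjusted p = 0.0809), ES-EP culture A (0.0883) or ES-EP culture B (0.110), after cyclic loess (0.0699) and after centring (0.0778). A second, dimmer feature of Acaca differed by -0.18 and did not pass (limma adjusted p = 0.303). Arrdc4, a close companion of Txnip, was dim, with 4.86 ± 0.01 for MEL and 5.01 ± 0.03 for ES-EP (SD, n = 2 each), and did not pass.

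Of 22 listed cofactors of MYC and of its antagonists 20 were measured, 8 were higher, 5 were lower and 7 did not pass. That is 40% higher and 25% lower, beside 21.8% and 36.9% of all genes. By at least 2-fold 1 was higher and 0 were lower, against 7.38% and 4.93% of all genes. Without ES-EP culture A or B the counts were 5 and 3. Without MEL culture A 3 were lower. The corepressor scaffolds that MXD proteins recruit were slightly higher in MEL, Sin3a by 1.32-fold (0.41 ± 0.08, SE) and Sin3b by 1.23-fold, the second call gone when either ES-EP culture was left out (limma adjusted p = 0.113 and 0.0802). The deacetylase gene Hdac2 was 1.19-fold higher, a call that also went without ES-EP culture A (0.147), ES-EP culture B (0.162) or MEL culture B (0.0708), and Hdac1 differed by -0.10 ± 0.08 and did not pass. Ruvbl1, an ATPase of the TIP60 complex, was 2.03-fold higher, and the acetyltransferase gene Kat2a 1.91-fold higher. The subunits of that complex differed in direction. Ruvbl2, the partner ATPase, named after its value was seen, was 1.39-fold higher, while Actl6a was 1.80-fold lower and the acetyltransferase Kat5 itself 1.65-fold lower. The scaffold gene Trrap (0.19, adjusted p = 0.0937) and Zbtb17, the partner through which MYC represses genes (0.07, adjusted p = 0.524), did not pass, and a second feature of Trrap was lower by -0.49, so its features disagree.

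Of the genes for the turnover of the MYC protein, 10 of 19 measured were higher in MEL, 2 were lower and 7 did not pass, with a median of 0.32. Over all genes 21.8% were higher and 36.9% lower. By at least 2-fold 0 were higher and 0 lower, against 7.38% and 4.93% of all genes. The list mixes genes that promote the decay of MYC with genes that counter it, so these counts give no direction for the protein. Skp2, a ubiquitin ligase subunit, was at 9.52 and 9.62 in MEL and 8.57 and 8.68 in ES-EP cells, 1.93-fold higher. Gsk3a, a kinase that marks MYC for decay, was 1.80-fold higher. Fbxw7, which recognises that mark, did not pass (-0.23, limma adjusted p = 0.0563), though it did without MEL culture B (0.0368), after quantile normalization (0.0122), with the intensity trend (0.0491) and with dim features left out (0.0346). Usp28, which counters it, differed by 0.06. The deubiquitinase gene Usp36 was 1.41-fold lower. Set, an inhibitor of a phosphatase that acts on MYC, was dim and 1.33-fold lower. That call was lost without MEL culture B (difference -0.33) or ES-EP culture B (-0.24). It was also lost after quantile normalization (limma adjusted p = 0.126) and after cyclic loess (0.195). A second feature of Set, dimmer still, was 1.57-fold lower (limma adjusted p = 0.00158). Without ES-EP culture B 1 gene of this list was lower.

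Other factors that bind E-boxes were more often higher than lower in MEL. Of 13 measured 7 were higher, 2 were lower and 4 did not pass. That is 53.8% higher and 15.4% lower, beside 21.8% and 36.9% of all genes. By at least 2-fold 4 were higher and 0 lower, against 7.38% and 4.93% of all genes. Arntl, the clock factor, was at 7.89 and 7.89 in MEL and 4.89 and 4.81 in ES-EP cells, 8.19-fold higher. Srebf1, a regulator of lipid synthesis, was 4.48-fold higher, and its relative Srebf2 was lower by -0.67. Tfec was dim and 1.41-fold lower. Among 20 listed regulators of Myc transcription or message, 19 were measured, 5 were higher and 8 were lower. These 26.3% and 42.1% are near the 21.8% and 36.9% of all genes. By at least 2-fold 1 of the 19 was higher and 5 were lower, against 7.38% and 4.93% of all genes. At that criterion the share of lower genes was above that of all genes. Igf2bp1, whose protein protects the Myc message, was at 5.00 and 4.80 in MEL and 7.64 and 7.65 in ES-EP cells, 6.72-fold lower. Its second, dimmer feature was 1.70-fold lower. E2f2 was 4.06-fold lower. Ctnnb1, the gene of beta-catenin, was higher by 1.13 on the log2 scale and Stat3 1.57-fold higher. Myb, another progenitor factor, differed by 0.20 ± 0.09 and did not pass (limma adjusted p = 0.0781), though it did after cyclic loess (0.0239) and with dim features left out (0.0485).

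The labels were checked against marker genes. The 10 measured erythroid markers had list means of 10.21 to 10.27 on the MEL arrays and 10.84 on both ES-EP arrays, and 7 were lower and 3 higher in MEL. A pair of them, named after their values were seen, stood apart between the systems. Slc4a1, the anion exchanger of the red cell membrane, was at 6.98 and 7.10 in MEL and 12.45 and 12.51 in ES-EP cells, 43.4-fold lower. Trim10 was at 9.71 and 9.83 in MEL and 6.88 and 6.85 in ES-EP cells, 7.51-fold higher. The 8 myeloid markers averaged 4.59 to 4.80 on the MEL arrays and 5.00 to 5.01 on the ES-EP arrays. The 8 pluripotency markers averaged 4.80 to 4.90 on the MEL arrays and 5.16 to 5.19 on the ES-EP arrays, and all these means lie below the array medians of 5.78 to 5.91. Of the myeloid markers 0 were higher and 3 lower in MEL, and of the pluripotency markers 2 and 6. Over all genes 21.8% were higher and 36.9% lower. The share lower was 70% for erythroid, 37.5% for myeloid and 75% for pluripotency markers, so the myeloid share is near that of all genes. The shares higher were 30%, 0% and 25%. After quantile normalization, cyclic loess and centring the lower pluripotency markers numbered 4, 4 and 6. The lower erythroid markers numbered 6, 6 and 6, and the lower myeloid markers 2, 2 and 2. The part of these marker differences in the results on the lists was not tested. In bulk RNA a smaller share of cells and less RNA per cell cannot be told apart.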

How the data were processed

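The values used are log2 intensities on the deposited scale, made by the authors with RMA, which corrects background and summarises probes, in GeneSpring GX (per the labels). Its version, filters and the set of arrays normalized are not given in the sources used. Of 35557 features, 6613 with consecutive low numbers were taken as the control block of this array design and left out. Names came from the platform annotation, updated by Entrez identifier from RefSeq (GRCm38.p6), which 21698 features matched. Of the 28944 tested features, 21789 had 1 symbol, 1621 several and 5534 none, and a gene with several features was represented by the brightest. Whether the brightest feature lies at the gene's own locus was not checked.

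The 2 MEL arrays were set against the 2 ES-EP arrays by limma 3.58.1, run in R 4.3.3 (lmFit and eBayes, 2 residual and 5.15 prior degrees of freedom). The smallest two-sided p from exact permutation of 4 arrays is 0.333, so the p-values rest on the variance shared across features. The number of arrays limits the precision, and since nothing beyond duplicate cultures is stated, they measure only how much these cultures vary. Duplicates correlated with r = 0.997 (MEL) and 0.998 (ES-EP), the groups with 0.948 to 0.949, across features. The network genes and all lists were chosen with earlier results of these data known.

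Named genes are the 10 network genes, the 2 largest passing rises and falls of each list, and 23 genes fixed for their role, of which Cdkn1a was not analysed here. Alternatives were quantile normalization, cyclic loess, centring of array medians, an intensity trend, a robust prior, leaving out features under the median, a 2-fold criterion, features with 1 symbol, the mean of a gene's features, the replicate letter as a block, and each culture left out.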

Additional observations from a re-analysis of the deposited data

How the results depend on the processing

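Apart from the 2-fold criterion, 118 differences of network genes were computed under the alternatives. Of these 91 kept their direction and their side of the threshold, 9 lost and 8 gained the threshold, and 10 changed sign, all of them values that did not pass. The 2-fold criterion ended 3 further calls, those of Mxd1, Mlx and Mycl, and 23 of the other named genes. Mycn became 0.00606 after quantile normalization, 0.0815 after cyclic loess, and ran from -0.228 to 0.0388 with a culture left out. Mxd3 became -0.10 after quantile normalization and ran from -0.000285 to 0.0457 with a culture left out. Mnt became 0.0218 with cyclic loess, 0.0296 with centring, and ran from -0.0744 to 0.00382 with a culture left out. Myc ran from -0.0305 to 0.0973 with a culture left out. Network genes higher in MEL numbered 3 after quantile normalization, cyclic loess, the intensity trend or leaving out dim features. Lower ones numbered 1 after cyclic loess or centring, 0 at 2-fold, and 1 to 3 with a culture left out. The median over all genes was -0.14 as deposited, -0.02 after quantile normalization, 0.02 after cyclic loess and -0.07 after centring, and the share of all genes called higher and lower was 21.8% and 36.9%, 26.7% and 28.6%, 29.0% and 24.5%, and 23.0% and 28.8%.

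At 2-fold the ribosome list had 0 higher and 2 lower genes, the metabolic list 3 and 4, and the repressed list 4 and 3. By the same criterion 7.38% of all genes were higher and 4.93% lower. With a culture left out, the ribosome list had 0 to 2 higher genes and the repressed list 5 to 7 lower ones. Of 619 differences of the 52 other named genes 565 stayed on their side, 34 lost and 12 gained the threshold, and 8 changed sign without having passed. With quantile normalization Zbtb17 became -0.0530, Hdac1 0.0583, Usp28 -0.10 and Arrdc4 0.0627. With cyclic loess Hdac1 became 0.0163 and Arrdc4 0.0718. With a culture left out Usp28 ran from -0.0719 to 0.191. The causes were not tested. Of 168 counts of the other lists 129 stayed within 1.5 times, 5 rose and 34 fell. The deviations of same-lettered arrays from their group means had a correlation of 0.110. The labels do not say whether cultures of the same letter were handled together, and this was not tested. With the replicate block the network had 1 higher and 3 lower genes, while Cdkn1b lost its call (limma adjusted p = 0.0558).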
